A study of Homo sapiens with 6 samples.

Results

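RNA from SKM-1 cells given BOR alone was compared with RNA from untreated SKM-1 cells. SKM-1 is a long-established human line, grown from a myelodysplastic syndrome that had progressed to acute myeloid leukaemia. The comparison rests on 4 of the 6 libraries of the series, 2 labelled with no treatment (untreated 1 and 2) and 2 labelled BOR (BOR 1 and 2). The labels do not spell BOR out, and no dose or exposure time is stated. The other 2 libraries, 1 labelled VEM (vemurafenib, a RAF kinase inhibitor, is named in the series title) and 1 labelled VEM+BOR, are used only as values set beside the main ones. All 6 are the same cell line with no further genotype given. The series title asks about senescence and HIPPO signalling under vemurafenib, and no purpose is stated for BOR on its own.

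A gene was taken when both BOR values lay above both untreated values, or below both. Values are normalised read counts, that is, reads per gene divided by 1 factor per library, and differences are on the log2(value + 1) scale. Of 25405 genes listed, 15382 had a mean of at least 10 over the 4 libraries. Among these, 1803 genes (11.7%) had both BOR values above both untreated values, and 1268 (8.24%) had both below, together 3071 genes (20%). With other scalings of the libraries the split turned the other way. TMM scaling, which centres the trimmed mean of log ratios, gave 1386 above (9.01%) and 1618 below (10.5%), and scaling to total reads gave 1046 (6.8%) and 1970 (12.8%). At the edge of the rule, EDC3 had 810 and 898 in untreated cells and 898 and 1575 with BOR, the smallest gap above. HCAR3, at 0 in both untreated libraries and in BOR 1 and at 417 in BOR 2, was just outside. The lowest mean kept was that of PHBP9 and the highest left out that of SLC4A9, both within 0.01 of the minimum.

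Myeloid maturation carries a granulocyte or monocyte precursor from making azurophil granule proteins to making later granule, receptor and secreted defence proteins. Sterol synthesis and the unfolded protein response of the endoplasmic reticulum are both run by membrane-bound sensors there, which send transcription factors to the nucleus when membrane cholesterol is short or when unfolded protein builds up. The integrated stress response works through the factor ATF4, which turns on amino acid supply and stress genes.

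Depth was alike, with 17371022 and 18031385 reads assigned to genes in the untreated libraries and 17694212 and 18507606 with BOR. BOR 2 stood apart from the other 3 libraries. Across the 15382 genes, Pearson's r on the log2 scale was 0.967 for the untreated pair and 0.985 for untreated 1 with BOR 1, but 0.858 for the BOR pair. Genes are not independent replicates, so these correlations only describe the libraries. BOR 2 was further from the untreated mean than BOR 1 in 85.1% of genes. Its difference also went with gene length, with a median of 0.25 in the shortest 25% of genes and -0.36 in the longest 25%, against -0.06 and 0.15 for BOR 1, and the part of length in the results below was not tested. Most list medians are therefore given for each BOR library, and the plot of list medians by library shows them for all lists. All 11 myeloid blast markers had a mean of at least 10 and summed to between 116697 and 155138 in the 4 libraries. Erythroid markers summed to at most 17.9, T cell markers to at most 44.4 and B cell markers to at most 245. Markers of maturing monocytes and granulocytes, several of which are described below, summed to 59484 and 61628 in untreated cells, 64402 in BOR 1 and 127939 in BOR 2. S100A9 made up most of each sum, at 49630 and 52590 untreated, 48433 in BOR 1 and 108999 in BOR 2. The groups overlapped for S100A9, ITGAM, CD14 and CSF3R. For TYROBP, FCN1, S100A8 and FCER1G both BOR values were above both untreated values. In bulk RNA, fewer cells of a type and less RNA per cell cannot be told apart.

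**Figure D1:**
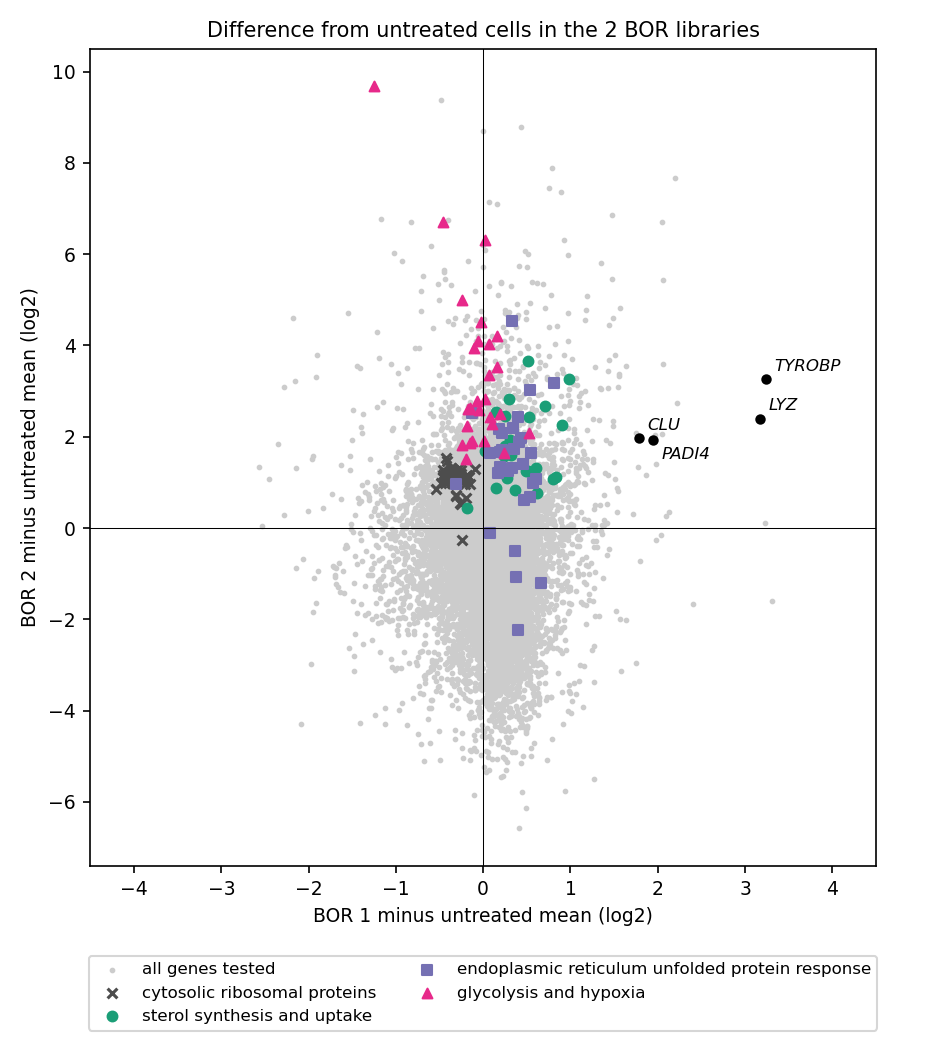
Difference of each gene from the untreated mean (log2) in BOR 1 (horizontal) and BOR 2 (vertical), with 15382 genes in grey and 4 gene lists marked. Most of the spread is vertical, TYROBP and LYZ stand out on both axes, and ribosomal protein genes lie left of 0 in BOR 1 and above 0 in BOR 2.

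No gene passed the test across all genes. Limma with a mean-variance trend called 0 genes at an adjusted p of 0.05, its lowest adjusted p was 0.968, and 38 genes had an unadjusted p under 0.05. EdgeR's quasi-likelihood test called 0, with 155 at an unadjusted p under 0.05. DESeq2 called 33 genes (0.215%), all higher with BOR, with 391 at an unadjusted p under 0.05. Besides TYROBP, described below, DESeq2's 33 include 7 genes named here, with adjusted p from 0.000654 for DDIT4 to 0.0254 for CHAC1. In DDIT4, EGR1, SLC2A3 and HCAR3 the groups overlapped and BOR 2 alone was high, and in CHAC1, FOSL2 and INHBE BOR 1 was above the untreated pair but BOR 2 far higher. Without BOR 1, limma called 4201 genes (1595 or 10.4% higher, 2606 or 16.9% lower), and without BOR 2 it called 0. The authors' deposited table has 18 genes with an adjusted p under 0.05 (0.0709% of those listed), all higher with BOR. Only 9 of these 18 had both BOR values above both untreated values, and their median difference was 0.19 in BOR 1 and 5.56 in BOR 2. Whether the 2 libraries of each group are separate cultures is not stated, so these p-values measure a spread that may be technical. The genes below are described by their values, and none of the differences passed limma.

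Among genes with a mean of at least 50, those with the widest gaps between groups included 5 members of the list of maturing monocyte and granulocyte genes. A gap is the distance from the lowest value of the higher group to the highest of the lower group. Of all genes tested, 29 (0.189%) had a gap of at least 1 log2 unit above and 25 (0.163%) one below. With a mean of at least 50 there were 8 above and 0 below, of which TYROBP, LYZ, PADI4, SERPINA1 and FCN1 are on that list, LYZ being a myeloid blast marker as well. The other 3 are OLFM4, FUT1 and CLU. Some genes with lower means had gaps as wide, among them long noncoding RNAs, and are not ranked here.

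TYROBP encodes DAP12, the signalling adaptor of many activating receptors on myeloid cells (chr19:35904401-35908295, minus strand). Its normalised read count was 21.3 and 14.3 in untreated cells and 174 and 175 with BOR. Both BOR libraries were high and nearly equal, whereas BOR 1 and BOR 2 differed by over 1 log2 unit in 44.7% of genes. The log2 difference was 3.25 (limma SE 0.61, adjusted p = 0.968). DESeq2 gave TYROBP an adjusted p of 0.00637, and the authors' deposited table gives it a log2 fold change of 3.29 with an adjusted p of 0.0160. It is the only one of the 18 genes called there with a gap of at least 1.

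LYZ encodes lysozyme, which breaks bacterial cell walls (chr12:69348341-69354234). Its values were 22.1 and 9.51 in untreated cells and 140 and 81.0 with BOR, so here BOR 1 was the higher of the pair. PADI4, which converts arginine to citrulline in histones of neutrophils (chr1:17308195-17364004), had 240 and 85.6 untreated and 557 and 546 with BOR. The untreated libraries of PADI4 lay further apart than the BOR pair, and the groups still did not overlap. OLFM4, a specific granule protein of a subset of neutrophils, had 35.7 and 38.0 untreated and 103 and 136 with BOR. FCN1, the monocyte lectin ficolin-1, had 3073 and 3660 untreated and 7444 and 10358 with BOR, and was the most abundant of these genes. SERPINA1, the inhibitor of neutrophil elastase, had 724 and 612 untreated and 1575 and 2506 with BOR. The log2 differences were 2.78 (SE 0.73) for LYZ, 1.93 (SE 0.63) for PADI4, 1.65 (SE 0.59) for OLFM4, 1.39 (SE 0.45) for FCN1 and 1.58 (SE 0.47) for SERPINA1.

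CLU encodes clusterin, a secreted chaperone. It had 423 and 335 untreated and 1297 and 1476 with BOR. OLFM4, FCN1 and CLU were the 3 genes with a mean of at least 50 and a gap of at least 1 whose BOR libraries, and whose untreated libraries, lay within 0.5 log2 units of each other. FUT1, a fucosyltransferase that makes the H antigen, was listed at 0 in both untreated libraries, at 3.58 in BOR 1 and at 201 in BOR 2, so its difference rests almost wholly on 1 library. ALOX5AP, the protein that presents arachidonic acid to 5-lipoxygenase for leukotriene synthesis, had 111 and 123 untreated and 242 and 428 with BOR. SERPINB8, an intracellular protease inhibitor, had 186 and 175 untreated and 355 and 1365 with BOR. RGCC, a regulator of the cell cycle, had 139 and 185 untreated and 340 and 354 with BOR. RGCC differed little between the BOR libraries, SERPINB8 by 1.94 log2 units.

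**Figure D2:**
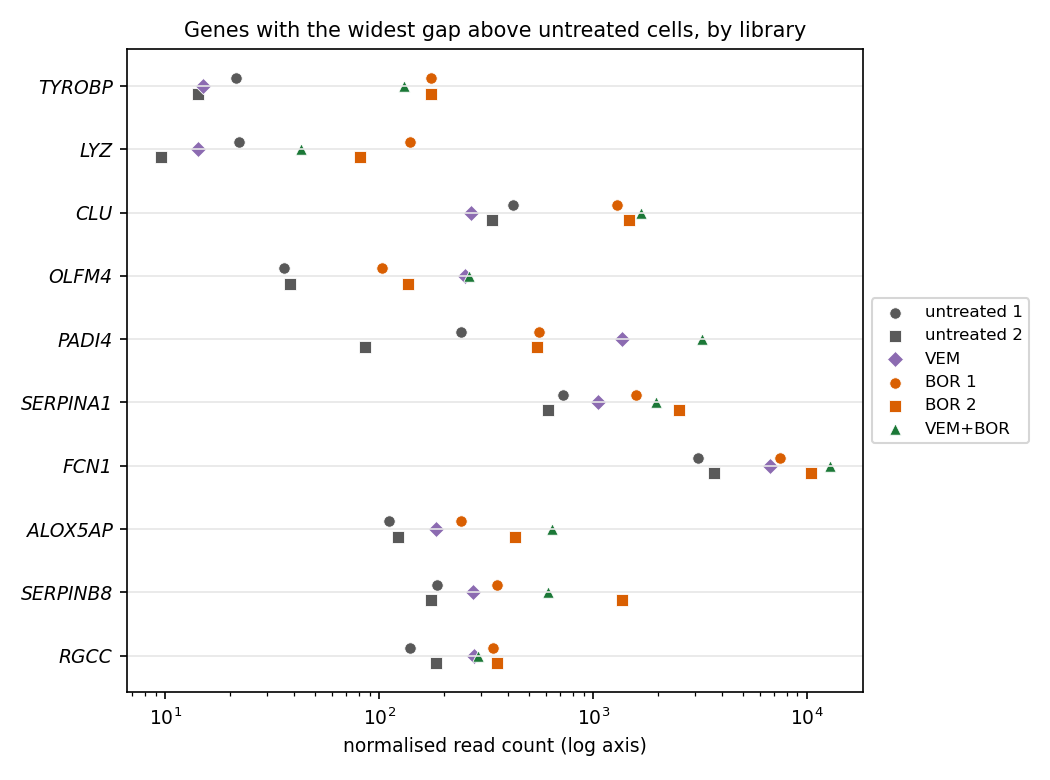
Normalised read count (log axis) of 10 of the 12 protein-coding genes with a mean of at least 50 and the widest gap above untreated cells, by library, with 2 not drawn, among them FUT1, listed at 0 in untreated cells. Orange BOR points lie right of the grey untreated points in every row drawn, and the green VEM+BOR point lies right of the purple VEM point, barely so for OLFM4 and RGCC.

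The list of maturing monocyte and granulocyte genes had 23 tested members. Both BOR values were above both untreated values in 8 of them (34.8%, against 11.7% of all genes) and below in 1, and the median log2 difference was 0.53, against 0.04 over all genes. The median was 0.19 in BOR 1 and 0.79 in BOR 2. Besides the 5 list members named above, the 8 were S100A8, a calcium-binding protein of neutrophils, FCER1G, the common gamma chain of Fc receptors, and AIF1, an actin-bundling protein of macrophages. S100A8 had 1422 and 2043 untreated and 3522 and 4624 with BOR. FCER1G had 84.3 and 70.4 untreated and 137 and 260 with BOR. The list did not move as one, since MNDA, a nuclear antigen of myeloid cells, had 3399 and 4240 untreated, 4627 in BOR 1 and 300 in BOR 2, and CD300A, an inhibitory receptor, had 562 and 541 untreated, 499 in BOR 1 and 11278 in BOR 2.

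LTF and TCN1 were singled out after their values were seen. Both encode specific granule proteins of neutrophils, lactoferrin and transcobalamin-1, and both had a gap of at least 1 at low counts. LTF had 4.26 and 3.80 untreated and 22.4 and 32.6 with BOR. TCN1 had 8.51 and 6.66 untreated and 27.7 and 35.3 with BOR.

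The azurophil granule list, whose genes are on earlier in maturation, had 2 of 10 members above (20%, against 11.7% of all genes) and 1 below (10%, against 8.24%). The median difference was 0.21, with 0.01 in BOR 1 and 0.42 in BOR 2, and it was -0.057 without untreated 1. AZU1, or azurocidin, had 23459 and 24115 untreated and 18476 and 15958 with BOR, and was the member below. PRTN3, proteinase 3, had 45237 and 52009 untreated and 53791 and 53089 with BOR, a gap of 0.03. MPO, myeloperoxidase, had 17926 and 14978 untreated and 16667 and 40522 with BOR, so its groups overlapped. None of the 12 stem and progenitor genes had groups that did not overlap, with medians of 0.19 in BOR 1 and -0.40 in BOR 2. Among them MYB, a transcription factor of progenitors, had 3073 and 3150 untreated, 4654 in BOR 1 and 561 in BOR 2.

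The VEM+BOR and VEM libraries allow a second look at these genes in RNA that shares no library with the 4 above. They were brought to the scale of the BOR table through the untreated columns, and with 1 library each they give no test. All 12 protein-coding genes with a mean of at least 50 and the widest gaps above were higher in VEM+BOR than in VEM, with a median log2 difference of 1.04, against 54.6% of all genes and a median of 0.04. TYROBP had 131 in VEM+BOR and 15.0 in VEM, so VEM alone lay within the untreated values. LYZ had 43.0 and 14.2, CLU 1675 and 268, and ALOX5AP 643 and 185. PADI4 had 3224 and 1364, and here VEM alone was already above both untreated and both BOR values. FCN1 had 12732 and 6698, SERPINA1 1963 and 1053, LTF 36.8 and 10.6, and TCN1 72.8 and 33.6. In these 4, and in ALOX5AP, VEM alone was also above both untreated values, whereas LYZ lay within them and CLU below. For the list of maturing monocyte and granulocyte genes, the median difference from the untreated mean was 0.58 in VEM and 1.27 in VEM+BOR, beside 0.19 in BOR 1. So that list, too, stood above in VEM without BOR. OLFM4 was nearly level, at 262 and 252, both above the BOR values. Of the 27 genes with a gap of at least 1 above that were listed in all tables, 22 (81.5%) were higher in VEM+BOR than in VEM. Of the 25 with such a gap below, 18 (72%) were lower. Over all genes whose groups did not overlap, the shares were 66.6% for those above and 65.8% for those below.

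PU.1 is a transcription factor that myeloid genes depend on, and its core motif GAGGAAGT was searched on both strands in the RefSeq promoter windows of build GRCh38.p14, which run from 250 bases before to 50 after the start of a gene. The bases before the start are shown for TYROBP (chr19:35908296-35908545, minus strand) and ALOX5AP (chr13:30713235-30713484, plus strand), 2 genes with wide gaps that hold the motif. Capitals mark the matches, which read ACTTCCTC where the motif is on the opposite strand.
TYROBP: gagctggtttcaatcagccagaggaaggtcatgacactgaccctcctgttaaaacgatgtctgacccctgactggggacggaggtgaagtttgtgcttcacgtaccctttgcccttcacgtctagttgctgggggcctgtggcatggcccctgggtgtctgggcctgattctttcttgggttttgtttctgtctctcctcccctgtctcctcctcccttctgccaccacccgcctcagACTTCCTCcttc
ALOX5AP: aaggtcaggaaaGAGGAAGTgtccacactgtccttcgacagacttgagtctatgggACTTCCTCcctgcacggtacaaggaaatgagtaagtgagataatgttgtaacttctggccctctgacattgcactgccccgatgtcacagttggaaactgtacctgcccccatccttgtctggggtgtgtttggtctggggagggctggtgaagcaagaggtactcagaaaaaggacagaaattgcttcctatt
TYROBP holds 1 match, at positions -12 to -5 relative to the start, and ALOX5AP holds 2, further upstream. Of 27305 RefSeq promoters 2.54% hold the motif, of the 10550 tested genes with a promoter 2.61%, and of the 1271 genes above with a promoter 2.28%. In the list of maturing myeloid genes 2 of 18 promoters hold it, those of TYROBP and NCF1. A match is a description of these letters and not of a bound site.

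Of the lists, the genes of sterol synthesis and uptake were most often above. Of 24 tested members, 19 (79.2%, against 11.7% of all genes) had both BOR values above both untreated values and 0 below (against 8.24%). There were 17 above under TMM scaling, and 15 above and 1 below when scaled to total reads. The median difference was 0.96, with 0.34 in BOR 1 and 1.59 in BOR 2. BOR 1 alone exceeded both untreated libraries in 19 of the 24, against 30.4% of all genes, and BOR 2 alone in 24, against 44.2%. So the list stood above in the library that resembled the untreated cells as well as in the one that stood apart.

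HMGCS1, an early enzyme of the pathway, had 1209 and 787 untreated and 1697 and 2054 with BOR. SQLE, squalene epoxidase, had 3505 and 2787 untreated and 4769 and 7770 with BOR. CYP51A1, the lanosterol demethylase, had 161 and 92.2 untreated and 229 and 588 with BOR. MSMO1, the next oxidase, had 1068 and 701 untreated and 1409 and 5557 with BOR. In each of these 4 enzymes untreated 1 was the higher untreated library and BOR 2 the higher BOR library. The log2 differences were 0.94 (SE 0.47) for HMGCS1, 0.96 (SE 0.48) for SQLE, 1.58 (SE 0.66) for CYP51A1 and 1.69 (SE 0.72) for MSMO1. The groups overlapped for MVK, mevalonate kinase, and for SREBF2, the factor that drives the pathway, at 4988 and 3116 untreated and 4654 and 11837 with BOR.

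Fatty acid synthesis genes had 4 of 12 members above (33.3%, against 11.7% of all genes) and 1 below (8.33%, against 8.24%). Their medians were 0.24 in BOR 1 and 1.48 in BOR 2. SCD, the desaturase that makes oleate, had 8910 and 6041 untreated and 11601 and 42225 with BOR, and ACLY, which makes cytosolic acetyl-CoA, had 8970 and 7077 untreated and 9717 and 23425 with BOR. The member below was ME1, malic enzyme, at 101 and 90.3 untreated and 53.7 and 70.5 with BOR.

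The sterol genes did not show this order between the other 2 libraries. In VEM+BOR only 4 of 24 (16.7%) were higher than in VEM, and the median difference was -0.28. Against the untreated mean, the list median was 0.38 in VEM and 0.06 in VEM+BOR, beside 0.34 in BOR 1. So VEM without BOR stood above as well. From untreated 1 to untreated 2 the median difference on this list was -0.39. HMGCS1 had 803 in VEM+BOR and 1168 in VEM, and CYP51A1 had 168 and 213. In VEM+BOR HMGCS1 lay within the untreated range and CYP51A1 just above it. In VEM, too, HMGCS1 lay within the untreated range and CYP51A1 above it. Whether the difference between the 2 settings exceeds the spread between libraries was not tested, as each has 1 library.

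The unfolded protein response of the endoplasmic reticulum had 18 of 31 members above (58.1%, against 11.7% of all genes) and 0 below (against 8.24%). The counts were 18 and 0 under TMM scaling and 19 and 0 when scaled to total reads. The median difference was 0.93, with 0.35 in BOR 1 and 1.64 in BOR 2. BOR 1 alone exceeded both untreated libraries in 22 of the 31, against 30.4% of all genes, and BOR 2 alone in 26, against 44.2%. In VEM+BOR 26 of the 31 (83.9%) were higher than in VEM, against 54.6% of all genes, with a median difference of 0.30. This order was not particular to the list. It was as frequent for MYC and ribosome biogenesis (96.8%), splicing factors (92%) and cytosolic heat shock proteins (90%), whose BOR and untreated groups mostly overlapped. Ribosomal protein genes went the other way (9.09%).

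HERPUD1 helps carry misfolded protein out of the endoplasmic reticulum. It had 1718 and 1841 untreated and 3132 and 16217 with BOR, a log2 difference of 2.00 (SE 0.80). DNAJB9, a co-chaperone that binds the sensor IRE1, had 312 and 312 untreated and 453 and 2561 with BOR. DERL3, a channel component of the same disposal route, had 363 and 343 untreated and 538 and 746 with BOR. EIF2AK3, the sensor kinase PERK, had 278 and 263 untreated and 394 and 431 with BOR, and its 2 BOR libraries were close. HSPA5, the chaperone BiP, had 23140 and 33170 untreated and 37289 and 108843 with BOR. In all 5 genes the untreated pair was close relative to BOR 2, but BOR 1 exceeded the higher untreated value by less than 1 log2 unit. HSPA5 had 29077 in VEM+BOR and 19397 in VEM, the former within the untreated range. ERN1, the sensor IRE1, overlapped, at 208 and 147 untreated and 160 and 1013 with BOR. Members also parted from the list, as HSP90B1 and SEL1L lay above the untreated pair in BOR 1 and below it in BOR 2.

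**Figure D3:**
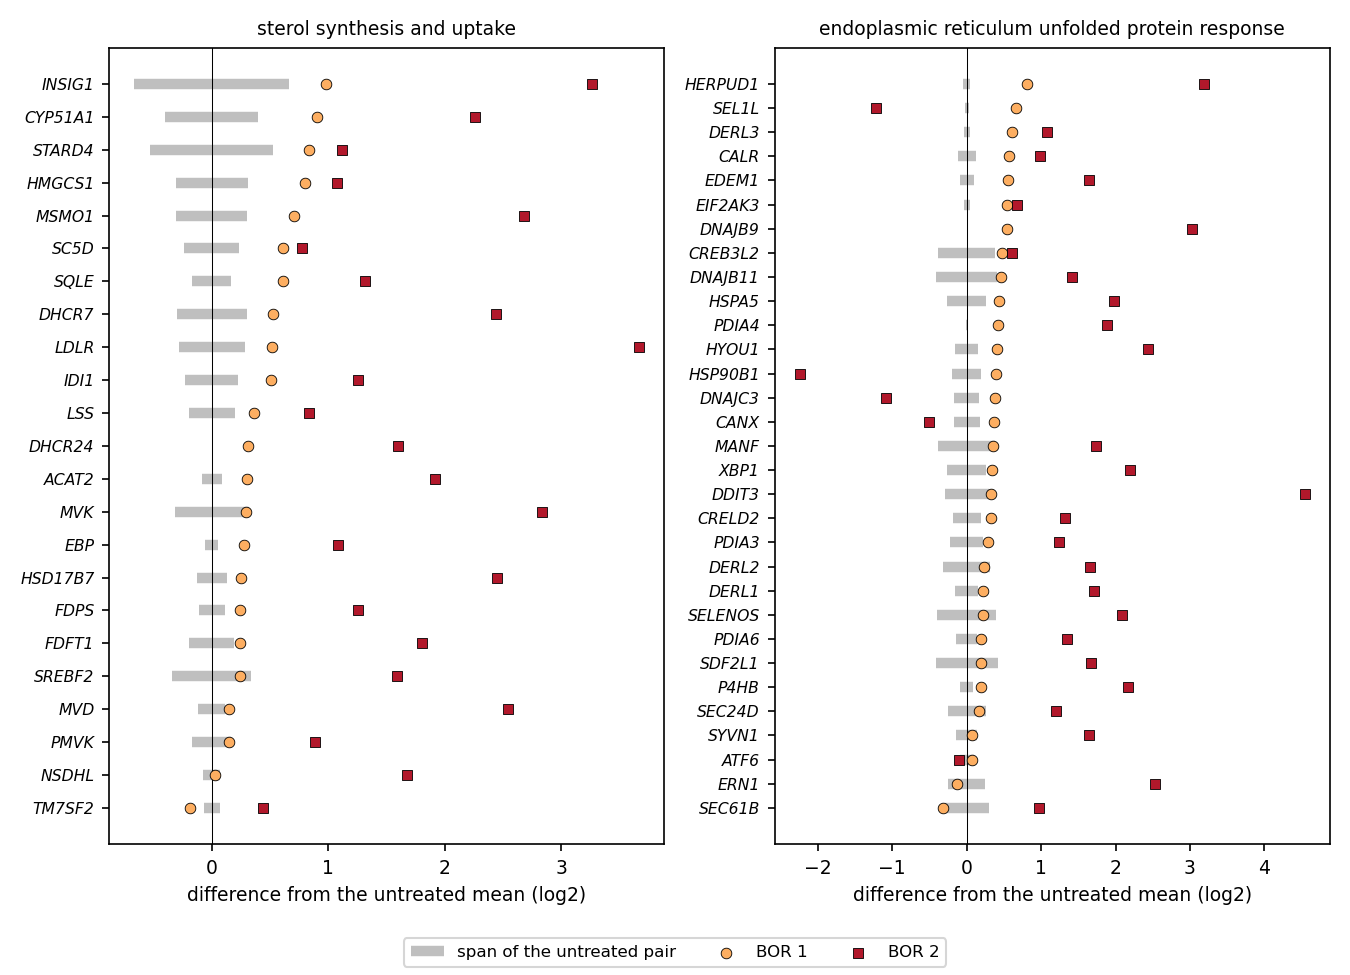
Difference from the untreated mean (log2) in BOR 1 (circles) and BOR 2 (squares) for the members of 2 lists, 1 sterol gene not drawn, with the span of the untreated pair as a grey bar. Most BOR 1 points lie just right of the bar, and over all tested members their median was 0.34 for the sterol genes and 0.35 for the unfolded protein response, and most BOR 2 points lie further right.

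The endoplasmic reticulum stress element, CCAAT and CCACG with 9 bases between them, is the element through which ATF6 and NF-Y act on such genes. It was searched on both strands and overlapped no other motif. It stood in 6 of the 27 promoters of the list that were in the table (22.2%), in 0.133% of the promoters of all genes tested and in 0.0806% of all promoters. The matches are shown in the direction of the motif because they hold the fixed letters, in capitals, around the free bases.
HSPA5: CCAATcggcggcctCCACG
CALR: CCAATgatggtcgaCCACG
CRELD2: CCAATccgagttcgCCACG
XBP1: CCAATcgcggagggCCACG
CANX: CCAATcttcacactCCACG
HSP90B1: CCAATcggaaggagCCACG
HSP90B1, second match: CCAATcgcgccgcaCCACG
HSPA5, CALR, CRELD2 and XBP1 had both BOR values above both untreated values. CANX and HSP90B1 did not, being below the untreated pair in BOR 2, so the element was present on both sides of the rule. The bases before the start of HSPA5 (chr9:125241344-125241593, minus strand) hold the match at positions -66 to -48 relative to the start.
HSPA5 promoter: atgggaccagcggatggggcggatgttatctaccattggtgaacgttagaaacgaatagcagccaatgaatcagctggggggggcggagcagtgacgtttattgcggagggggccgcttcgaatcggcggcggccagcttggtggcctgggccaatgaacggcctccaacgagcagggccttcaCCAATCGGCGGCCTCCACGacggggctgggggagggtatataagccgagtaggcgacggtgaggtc
The promoter of HERPUD1, which had the widest gap in the list, held no match to the element with 9 bases between its parts. Other spacings and arrangements of these parts were not searched, so HERPUD1 may hold another form of the element. For the sterol regulatory element, TCACNCCAC, only 1 of 18 promoters of the sterol list held a match, that of SREBF2, against 1.09% of all genes tested.

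The ATF4 list had 11 of 32 members above (34.4%, against 11.7% of all genes) and 1 below (3.12%, against 8.24%). Here the 2 BOR libraries parted. The median difference was 0.09 in BOR 1 and 2.25 in BOR 2. INHBE, a secreted inhibin subunit, had 15.3 and 15.2 untreated, 25.1 in BOR 1 and 663 in BOR 2. CHAC1, which degrades glutathione, had 97.0 and 92.2 untreated, 138 in BOR 1 and 2904 in BOR 2. CEBPB, a partner of ATF4 and a myeloid transcription factor, had 1070 and 1208 untreated, 1684 in BOR 1 and 6630 in BOR 2. GDF15, a stress-induced hormone, had 0.851 and 2.85 untreated, 6.27 in BOR 1 and 57.5 in BOR 2. For these 4 genes BOR 1 was above the untreated pair and BOR 2 far above it. DDIT4, an inhibitor of mTORC1, overlapped, at 185 and 144 untreated, 182 in BOR 1 and 22502 in BOR 2. In VEM+BOR 14 of the 32 (43.8%) were higher than in VEM, against 54.6% of all genes. Both of these libraries stood above untreated cells, with list medians of 1.07 in VEM and 0.91 in VEM+BOR. VEM+BOR exceeded both untreated values in 31 of the 32.

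The amino acid response element was searched as TGATGNAAN, and 5 of 20 promoters of the ATF4 list held it (25%). The shares were 1.67% of all genes tested and 3.67% of all promoters. The 5 were those of ASNS, ATF3, CHAC1, SLC3A2 and SLC7A1. CHAC1 was above in both BOR libraries, but the groups overlapped for ATF3, at 39.2 and 54.2 untreated, 48.3 in BOR 1 and 6646 in BOR 2. CHAC1 (chr15:40953221-40953470, plus strand) and HERPUD1 (chr16:56931892-56932141, plus strand) each held 1 match, both reading GTTGCATCA on the strand shown, in capitals.
CHAC1: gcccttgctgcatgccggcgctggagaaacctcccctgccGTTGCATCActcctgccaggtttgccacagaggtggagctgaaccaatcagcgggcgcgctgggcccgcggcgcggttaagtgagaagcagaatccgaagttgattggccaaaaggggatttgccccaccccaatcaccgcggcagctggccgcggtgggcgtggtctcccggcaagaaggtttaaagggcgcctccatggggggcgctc
HERPUD1: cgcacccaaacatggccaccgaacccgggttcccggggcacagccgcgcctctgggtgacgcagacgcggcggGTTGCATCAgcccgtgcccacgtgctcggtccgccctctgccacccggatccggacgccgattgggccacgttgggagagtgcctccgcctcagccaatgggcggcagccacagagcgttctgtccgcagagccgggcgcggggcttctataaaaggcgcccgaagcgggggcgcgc
These 2 genes are shown because they had among the widest gaps of their lists. HERPUD1 is on the unfolded protein response list, where 1 of 27 promoters (3.7%) held the amino acid response element.

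Immediate early and ERK output genes had 13 of 27 members above (48.1%, against 11.7% of all genes) and 0 below. But 10 were above under TMM scaling and 7 when scaled to total reads. The median difference was 0.12 in BOR 1 and 2.83 in BOR 2. FOSL2, an AP-1 subunit, had 46.8 and 27.6 untreated, 83.2 in BOR 1 and 1260 in BOR 2, with 170 in VEM+BOR and 58.4 in VEM. PHLDA1, a target of ERK signalling, had 21.3 and 24.7 untreated, 42.1 in BOR 1 and 512 in BOR 2, with 152 in VEM+BOR and 71.7 in VEM. MYADM, a myeloid membrane protein, had 1089 and 740 untreated and 1288 and 1328 with BOR, with the BOR pair close. SPRY4, a feedback inhibitor of the pathway, had 316 and 371 untreated and 431 and 994 with BOR. EGR1 overlapped, at 196 and 105 untreated, 108 in BOR 1 and 15539 in BOR 2. BRAF, the kinase that vemurafenib inhibits in its mutant form, had 292 and 280 untreated and 367 and 326 with BOR.

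Genes of glycolysis and hypoxia had 4 of 27 members above (14.8%) and 0 below, a share near that of all genes. Their median difference was -0.05 in BOR 1 and 2.64 in BOR 2, where all 27 exceeded both untreated libraries. SLC2A3, a glucose transporter, had 257 and 283 untreated, 273 in BOR 1 and 21627 in BOR 2. ADM, adrenomedullin, had 2.55 and 4.76 untreated, 0.895 in BOR 1 and 3702 in BOR 2. HK2, a hexokinase, had 2493 and 2746 untreated, 2917 in BOR 1 and 29980 in BOR 2. The list stood above in BOR 2 and not in BOR 1.

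Chemokine and NF-kB target genes had 4 of 26 members above (15.4%, against 11.7% of all genes) and 0 below, with medians of 0.10 in BOR 1 and 1.74 in BOR 2. SERPINB2, an inhibitor of plasminogen activators, had BOR 1 as the higher library instead, at 129 and 157 untreated, 609 in BOR 1 and 170 in BOR 2, with 1084 in VEM+BOR and 216 in VEM. BIRC3, an inhibitor of apoptosis, also had BOR 1 above BOR 2, at 57.0 and 36.1 untreated, 56.4 in BOR 1 and 7.84 in BOR 2. So did SOD2, the mitochondrial superoxide dismutase, at 389 and 495 untreated, 495 in BOR 1 and 456 in BOR 2. PTGS2, cyclooxygenase-2, had 57.9 and 62.8 untreated, 68.9 in BOR 1 and 965 in BOR 2. CXCL8, the neutrophil chemokine interleukin-8, overlapped, at 911 and 3022 untreated, 2334 in BOR 1 and 43912 in BOR 2.

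**Figure D4:**
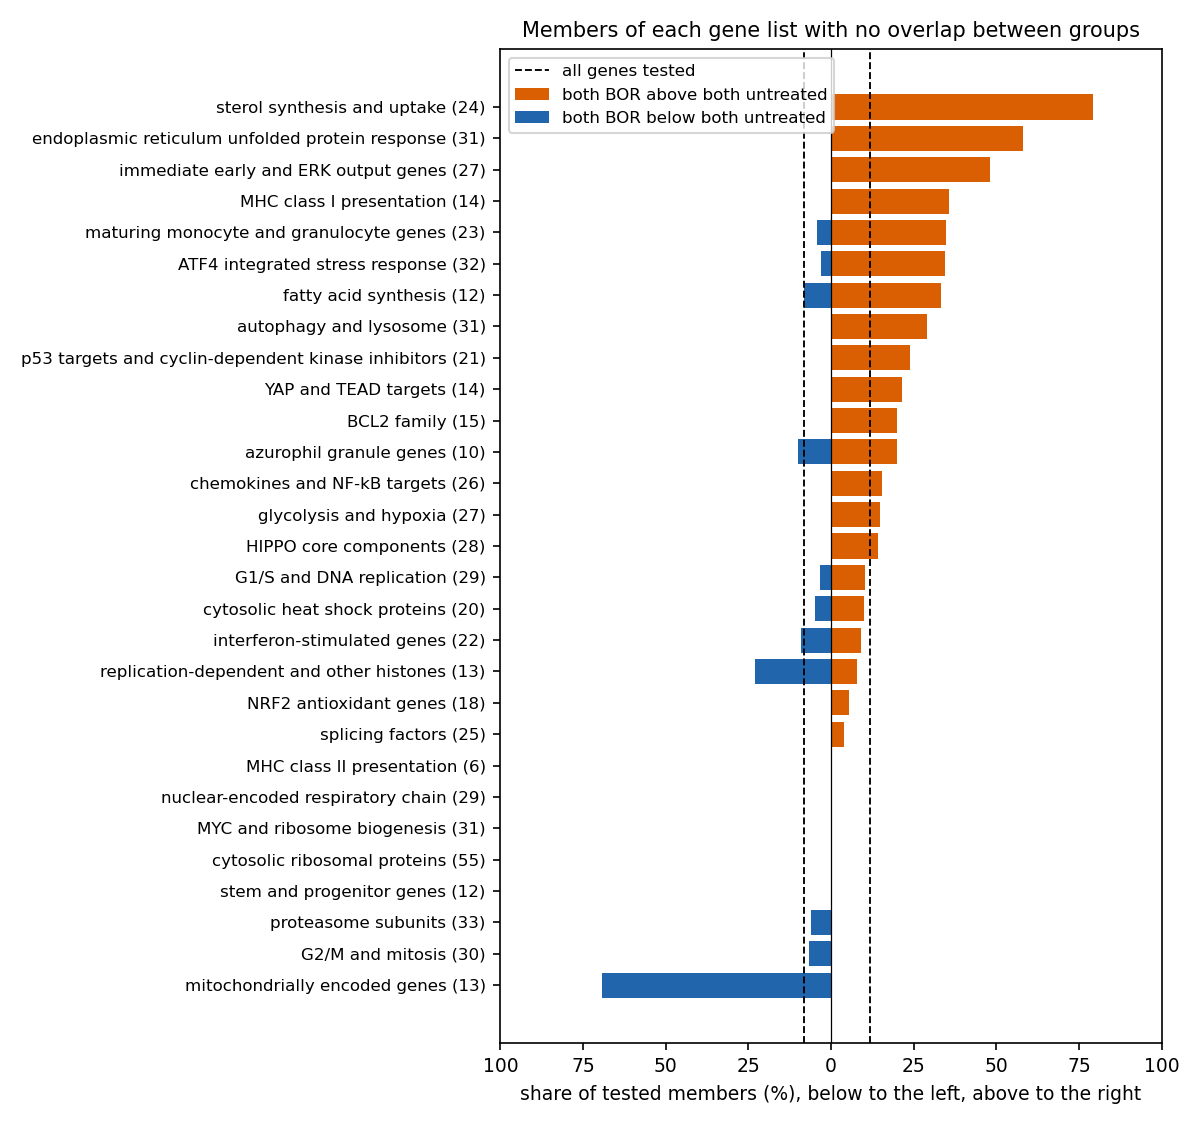
Share of the tested members of each list (number in brackets) with both BOR values above both untreated values (orange, right) or below both (blue, left), in percent. The dashed lines are the shares over all genes tested, 11.7% and 8.24%, and sterol genes reach 79.2% above while mitochondrially encoded genes reach 69.2% below.

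The genes encoded in mitochondrial DNA were the list most often below. Of 13 tested members, 9 (69.2%, against 8.24% of all genes) had both BOR values below both untreated values and 0 above (against 11.7%). There were 9 below under TMM scaling and 10 when scaled to total reads. The differences were small, with a median of -0.22 in BOR 1 and -0.38 in BOR 2. MT-ND5, a subunit of complex I, had 39726 and 45431 untreated and 33586 and 24526 with BOR. MT-CO3, a subunit of cytochrome c oxidase, had 88544 and 113058 untreated and 78230 and 66919 with BOR. MT-ND6 had 10450 and 14387 untreated and 9440 and 9425 with BOR, with the BOR pair level. As a share of all reads, mitochondrially encoded genes took 5.40% and 5.26% in untreated cells and 4.56% and 3.14% with BOR. VEM had 4.44% and VEM+BOR 4.23%, and MT-ND5 was at 27518 in VEM and 29145 in VEM+BOR, so VEM alone was also below the untreated pair.

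The nuclear-encoded respiratory chain genes did not go with them. None of 29 members had groups that did not overlap, and their median was -0.16 in BOR 1 and 0.92 in BOR 2. Cytosolic ribosomal protein genes also parted by library. All 55 were below the untreated mean in BOR 1, with a median of -0.34, and 54 were above both untreated libraries in BOR 2, with a median of 1.12, so none had groups that did not overlap. RPS9 had 10426 and 16841 untreated, 9883 in BOR 1 and 38140 in BOR 2. Proteasome subunits showed the same division, with medians of -0.37 and 0.67. Of 33 members 0 were above and 2 below (6.06%, against 8.24% of all genes). Those 2 were PSMD1, a scaffold of the regulatory particle, at 1776 and 2884 untreated and 1591 and 889 with BOR, and PSMD14, its deubiquitinase, at 2013 and 3058 untreated and 1941 and 1388 with BOR. Cytosolic heat shock proteins had 2 of 20 above (10%, against 11.7% of all genes) and 1 below (5%, against 8.24%). Their median was 0.22 in BOR 2 and near 0 in BOR 1. HSP90AA1, the inducible HSP90, was the member below, at 18945 and 24359 untreated, 17768 in BOR 1 and 1875 in BOR 2.

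**Figure D5:**
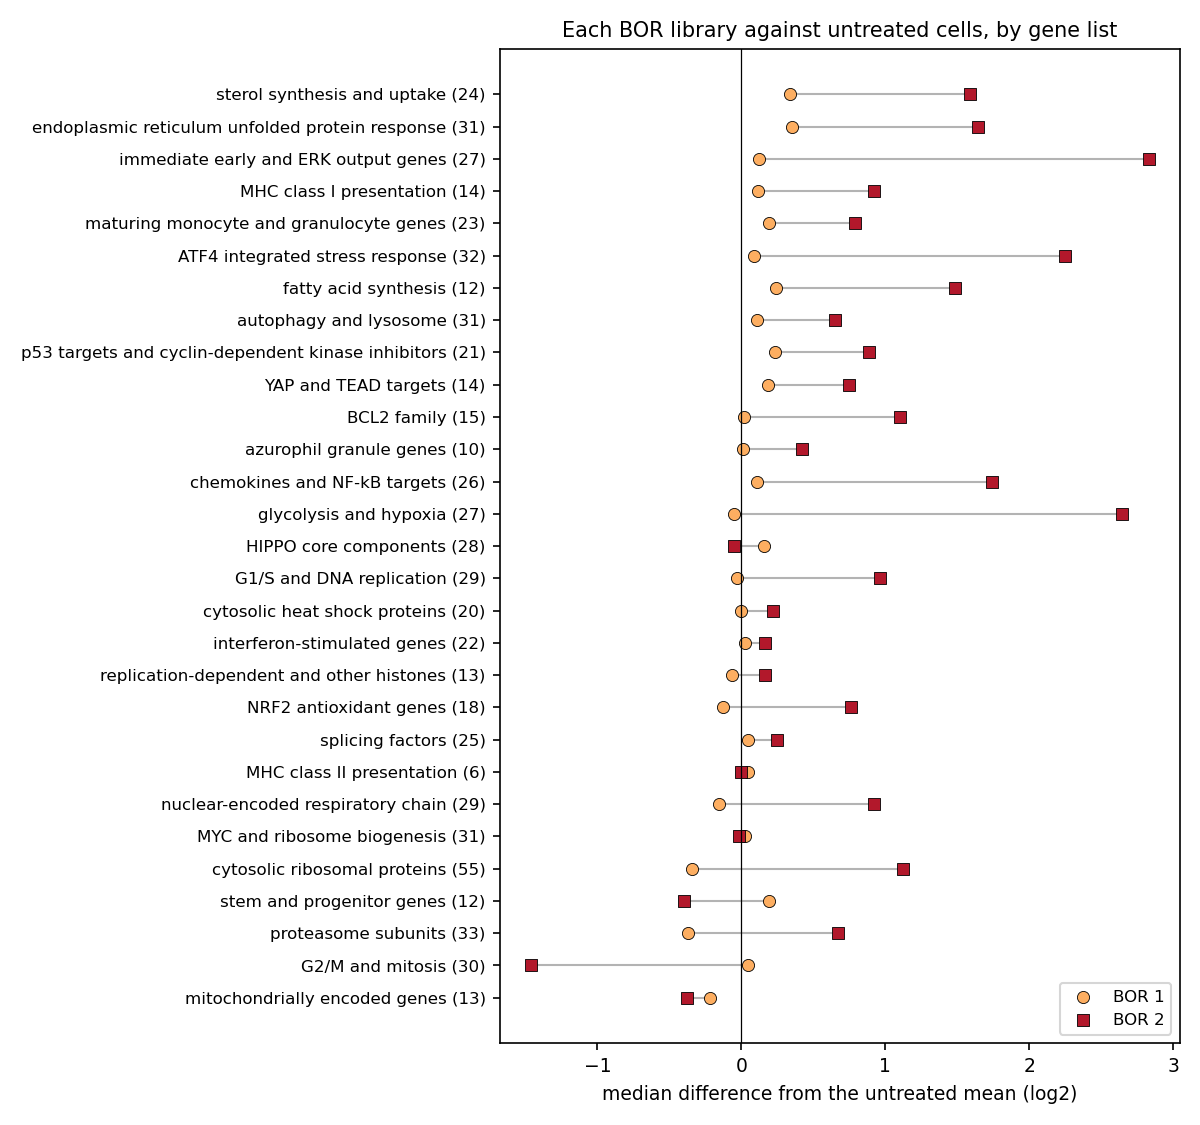
Median difference from the untreated mean (log2) over the tested members of each list, for BOR 1 (circles) and BOR 2 (squares). Sterol genes and the unfolded protein response have the highest BOR 1 medians, 0.34 and 0.35, whereas ribosomal protein, proteasome and respiratory chain genes lie on opposite sides of 0 in the 2 libraries.

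Mitosis genes had 2 of 30 members below (6.67%, against 8.24% of all genes) and 0 above. Their medians were 0.04 in BOR 1 and -1.46 in BOR 2. MKI67, the proliferation antigen Ki-67, had 6777 and 5247 untreated, 4013 in BOR 1 and 704 in BOR 2, with 1899 in VEM and 3427 in VEM+BOR. It was 1 of the 2 members below, and the other, DLGAP5, had 1185 and 1153 untreated, 1099 in BOR 1 and 45.7 in BOR 2. HMMR, a spindle protein, overlapped, at 1353 and 1390 untreated, 1401 in BOR 1 and 32.7 in BOR 2. Genes of DNA replication had 3 of 29 above (10.3%, against 11.7% of all genes) and 1 below (3.45%, against 8.24%), with medians of -0.03 and 0.96. Among p53 targets and cyclin-dependent kinase inhibitors, 5 of 21 were above (23.8%, against 11.7% of all genes) and 0 below, with medians of 0.23 in BOR 1 and 0.88 in BOR 2. CDKN1A, or p21, overlapped, at 827 and 345 untreated, 629 in BOR 1 and 9150 in BOR 2. CDKN2A, which encodes p16 and ARF from transcripts that gene-level counts do not separate, also overlapped, at 5490 and 6165 untreated, 5415 in BOR 1 and 13059 in BOR 2.

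HIPPO signalling restrains the co-activator YAP1, which acts through TEAD factors. Its core components had 4 of 28 members above (14.3%, against 11.7% of all genes) and 0 below. Their medians were 0.16 in BOR 1 and -0.05 in BOR 2. YAP and TEAD targets had 3 of 14 above (21.4%, against 11.7% of all genes), with medians of 0.18 and 0.75. VGLL4, which competes with YAP1 for TEAD factors, had 729 and 456 untreated and 803 and 3658 with BOR. YAP1 overlapped, at 195 and 88.4 untreated and 126 and 48.3 with BOR. MYC and ribosome biogenesis genes had 0 of 31 on either side and medians of 0.02 and -0.02, with MYC at 6780 and 10393 untreated and 8826 and 10806 with BOR.

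Lysosome and autophagy genes had 9 of 31 members above (29%, against 11.7% of all genes) and 0 below. Their medians were 0.11 and 0.65, though scaling to total reads gave 8 above and 3 below. PSAP, the precursor of the saposins, had 9309 and 6469 untreated and 10568 and 16439 with BOR. CTSZ, a lysosomal protease, had 3649 and 3937 untreated and 4464 and 4614 with BOR, a small difference with both pairs close. MHC class I presentation genes had 5 of 14 above (35.7%, against 11.7% of all genes) and 0 below, with medians of 0.12 and 0.92. TAP1, the peptide transporter, had 2019 and 2037 untreated and 2436 and 3406 with BOR. B2M, the light chain of class I molecules, had 34061 and 35016 untreated and 38081 and 76264 with BOR. Interferon-stimulated genes were split, 2 above and 2 below of 22 (9.09% each, against 11.7% and 8.24% of all genes), with medians of 0.03 and 0.17. MX1, an antiviral GTPase, had 70.6 and 40.9 untreated and 26.9 and 13.1 with BOR. The 6 MHC class II genes gave none on either side, and NRF2 antioxidant genes gave 1 of 18 above (5.56%), with medians of -0.13 and 0.76. Splicing factors gave 1 of 25 above (4%), with medians of 0.05 and 0.25. The BCL2 family gave 3 of 15 above (20%, against 11.7% of all genes), with medians of 0.02 and 1.10. Histones gave 1 of 13 above (7.69%, against 11.7% of all genes) and 3 below (23.1%, against 8.24%), with medians of -0.06 and 0.16.

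Among genes with a mean of at least 50, none below the untreated cells had a gap of 1. Over all genes whose groups did not overlap, the median gap was 0.17 for those below and 0.13 for those above. The 12 widest of protein-coding genes with a mean of at least 50 ran from 0.74 to 0.51, and none of the 12 genes is in the lists above. FAM86B1, a member of a family of near-identical copies whose reads may be split among them, had 123 and 128 untreated and 72.5 and 73.1 with BOR, and 69.2 in VEM+BOR against 117 in VEM. CCDC74A, which also has a close copy, had 511 and 499 untreated and 272 and 328 with BOR. TLR6, a receptor for bacterial lipopeptides, had 111 and 122 untreated, 66.2 in BOR 1 and 7.84 in BOR 2. METTL7B, a methyltransferase, had 173 and 162 untreated and 104 and 47.0 with BOR, and 54.4 in VEM+BOR against 113 in VEM. ZNF385A, a zinc finger protein that binds p53, had 273 and 253 untreated and 166 and 132 with BOR. SLC38A6, of a family of amino acid transporters, had 69.8 and 91.3 untreated and 42.1 and 45.7 with BOR. For FAM86B1, CCDC74A, ZNF385A and SLC38A6 the BOR pair lay within 0.5 log2 units, as did the untreated pair. The other 6, C9orf66, FAM181B, KIAA1211L, TRIM69, PCNX2 and SENP8, had log2 differences from -1.35 to -0.64. In VEM+BOR 9 of these 12 were lower than in VEM. Of the 25 genes with a gap of at least 1 below, 8 were protein-coding, against 20 of the 29 above, and their highest mean was 33.5.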

How the data were processed

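Poly-A RNA of SKM-1 cells was sequenced as paired reads, and groups follow the treatment labels. The submitters' processing notes name HISAT2 2.0.5 and CASAVA, then edgeR 3.22.5 beside featureCounts 1.5.0-p3, and also DESeq2 1.20.0, without saying what each did. They name no genome build. Gene coordinates equal GENCODE release 29 (GRCh38) for 25399 of 25405 genes. No step that marks strand is described, so a gene's reads cannot be separated from those of an overlapping or antisense gene. Per the file headers, the authors deposited 1 table for each treated group, with a normalised signal per gene and library. Its values were whole multiples of 1 step per library within 0.001 for 100% of entries, so the reads were recovered. The authors' deposited log2 fold changes, p-values and gene lengths are their own, and 0 columns were of other series.

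The test was limma 3.58.1 in R 4.3.3 on log2(value + 1), two-sided, for a mean of at least 10, with Benjamini-Hochberg adjustment over 15382 genes and a threshold of 0.05. A fold on this scale understates low genes. Counts were simulated with the dispersion of the untreated pair, 0.0772, with some genes raised or lowered 2-, 4-, 8- or 16-fold. On these the test called 8%, 80%, 98% and 98% in turn, and 5 of 15182 unchanged genes. The BOR pair spreads more widely, its chi-square over degrees of freedom being 292 against 45.4 for the untreated pair, so these shares overstate what could be found. Recovered reads were also tested with DESeq2 1.42.0 and edgeR 4.0.16. Further alternatives were other scalings, pseudocounts of 0.5 and 10, array weights, no trend, other filters and each library left out.

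The design assumed a moderated test on normalised values, which applied. Named genes were protein-coding, with a mean of at least 50 and the 12 widest gaps in each direction. Added were genes with a gap of at least 1 and pairs within 0.5, up to 4 members of each list by gap, up to 2 overlapping members by change, and a fixed set that includes CDKN1A, CDKN2A, MKI67, MYC, MPO, DDIT4, BRAF and YAP1. Genes named beyond these, to account for a list's members or for a promoter match, and LTF and TCN1, were chosen after their values were seen. A few genes that meet the naming rule are left unreported. The 29 gene lists and the members were chosen with earlier results of these data known. VEM and VEM+BOR values were brought to the BOR table's scale by the ratio of untreated steps, a step added after seeing the data. Promoters are RefSeq windows matched by symbol for 10550 of the genes tested, and the mitochondrially encoded and histone lists had 0 matches. The labels give no replicate numbers, and libraries were numbered in accession order.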

Additional observations from a re-analysis of the deposited data

How the results depend on the processing

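With 2 libraries a group, and BOR 2 far from the rest, the counts turn on single libraries and on low values. DESeq2 called 33 genes in place of 0, and limma called 0 to 4201 over the 4 fits that left out 1 library, with 4201 when BOR 1 was the one left out. The lone library of a group was then assumed to vary like the other group. Non-overlapping genes numbered 5604 with no filter on low values and 7175 to 13173 with 1 library left out, where a group of 1 overlaps less. Genes with a gap of at least 1 numbered 54 in the main setting, 11 with a pseudocount of 10, 518 with no filter, 8 with a mean of at least 50 and 145 to 4992 with 1 library left out, the highest of both ranges without BOR 1. Scaling to total reads shifted the median of all genes from 0.04 to -0.26, so list medians moved down with it. It gave -0.086 for azurophil granule genes, -0.21 for heat shock proteins, -0.30 for MYC and ribosome biogenesis, -0.65 for mitochondrially encoded genes, -0.21 for interferon-stimulated genes, -0.28 for MHC class II, -0.10 for splicing factors, -0.21 for HIPPO core components and -0.31 for histones. MYC and ribosome biogenesis genes had -0.17 with edgeR and -0.10 with DESeq2 and with TMM scaling, and MHC class II genes -0.11, -0.042 and -0.073. With 1 library left out, the medians ran from -0.53 to 0.36 for MHC class II, -0.39 to 0.37 for MYC and ribosome biogenesis, -0.31 to 0.34 for heat shock proteins, -0.39 to 0.45 for interferon-stimulated genes, 0.19 to 0.98 for maturing monocyte and granulocyte genes, -0.52 to -0.20 for mitochondrially encoded genes, -0.064 to 0.17 for histones and -0.11 to 0.49 for splicing factors. Both pseudocounts left all 29 list medians within the spread of the BOR pair. Array weights, which came out equal within each pair, and no trend cannot move a median, so they say nothing on its stability. The cause of these shifts was not tested.

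The sign of a single gene's log2 difference turned when scaled to total reads, with -0.020 for BRAF, -0.037 for CTSZ, -0.079 for MYC, -0.16 for PRTN3 and -0.18 for SOD2. It also turned when 1 library was left out, over ranges of -1.25 to 9.68 for ADM, -2.39 to 0.31 for BIRC3, -0.50 to 0.37 for CANX, -0.14 to 4.35 for CD300A, -0.10 to 1.17 for CDKN2A, -0.40 to 6.75 for EGR1, -0.13 to 2.53 for ERN1, -5.35 to 0.030 for HMMR, -2.24 to 0.39 for HSP90B1, -3.66 to 0.29 for MNDA, -2.47 to 0.58 for MYB, -0.090 to 0.53 for MYC, -0.42 to 1.53 for RPS9, -1.22 to 0.66 for SEL1L and -0.058 to 0.29 for SOD2.

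No paired analysis was possible because the labels carry no replicate numbers, and those used here follow accession order.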
